A study of Mus musculus with 15 samples.

Results

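Transcripts of 6 genes used as markers of neural crest-like and dedifferentiated melanoma cells, Ngfr, Axl, Egfr, Erbb3, Sox9 and Nes, were followed through 15 RNA sequencing libraries of B16-F10, a pigmented mouse melanoma cell line. They were taken from a table of 46078 gene identifiers as markers of melanoma phenotype switching, and Ngfr was selected on its levels, which lay in opposite directions with GSK126 and with siEzh2. The measured values the set was chosen by were those of GSK126 with DMSO and of siEzh2 with scr, so in both comparisons, and in scr with DMSO, the 6 genes are described with no test. They are tested with DZNep, a comparison that shares the DMSO libraries with that of GSK126. The treated groups were cells given 2 µM GSK126, an inhibitor of the methyltransferase EZH2, 2 µM DZNep (3-deazaneplanocin A), which inhibits S-adenosylhomocysteine hydrolase, and an siRNA against Ezh2 (siEzh2). Their controls were a scrambled siRNA (scr) for siEzh2 and the vehicle DMSO for both compounds. Each of the 5 groups had 3 libraries of 1 cell line, and whether they were separate cultures is not stated. The spread behind each p-value is therefore that between libraries, which may be technical. The sources used here give neither the time of treatment nor the siRNA sequences.

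Melanoma cells can move between a pigmented state run by the transcription factor MITF, a neural crest-like state and an undifferentiated, invasive state. NGFR (CD271, the low-affinity neurotrophin receptor), SOX9 (a SoxE transcription factor of the neural crest) and nestin (the intermediate filament protein NES of progenitor cells) are used as markers of the less differentiated states. The receptor tyrosine kinases AXL and EGFR are used to mark cells with low MITF, and ERBB3 is the neuregulin receptor of melanocytes and Schwann cells, which signals through its partner ERBB2. EZH2 is the catalytic subunit of Polycomb repressive complex 2, which methylates histone H3 and, in mammals, is found mostly at promoters rich in CpG.

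Total counts per library lay between 33299524 and 64545747. Ezh2 stood at 37.6, 39.9 and 41.3 CPM (counts relative to the TMM-scaled library size) in the siEzh2 libraries, against 215, 227 and 215 CPM in the scr libraries, so the knockdown matched its label. All 7 pigment cell markers, among them Tyr, Dct, Pmel and Sox10, were present in every library, with a summed level of at least 18900 CPM. Of the markers of other cells, the highest were the myelin gene Mbp at 83.4 to 139.5 CPM and the fibroblast markers Postn at 5.93 to 49.9 CPM and Col1a2 at 2.84 to 10.35 CPM. Of 9 fibroblast markers 5 passed the count filter, and Thy1 had no count in any library. Of 10 blood and endothelial markers 3 passed, with no count of Cd3e or Cdh5, and of 7 keratinocyte and Schwann cell markers 4 passed, with no count of Krt5 or Krt14. The library numbers in the labels run from 4 to 9 in the siRNA arm and from 13 to 20 in the compound arm, except that GSK126 replicate 1 has number 3.

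Of the 6 genes, 5 passed the low-count filter, and Egfr did not. Their levels can be compared only per length of exon. In DMSO, Erbb3 had the highest level, 19.2 ± 0.391 CPM per kb, followed by Nes at 12.9 ± 0.815, Sox9 at 8.22 ± 0.275, Axl at 3.43 ± 0.0627 and Ngfr at 0.286 ± 0.0246 CPM per kb (SD, n = 3). No neighbours in that order overlapped. With DZNep the order was led by Sox9 at 26.5 ± 0.231 CPM per kb, ahead of Erbb3 at 13.4 ± 0.398. In scr, Nes (13.7 ± 0.452 CPM per kb) and Erbb3 (13.1 ± 0.832 CPM per kb) did not differ beyond their spread.

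**Figure D1:**
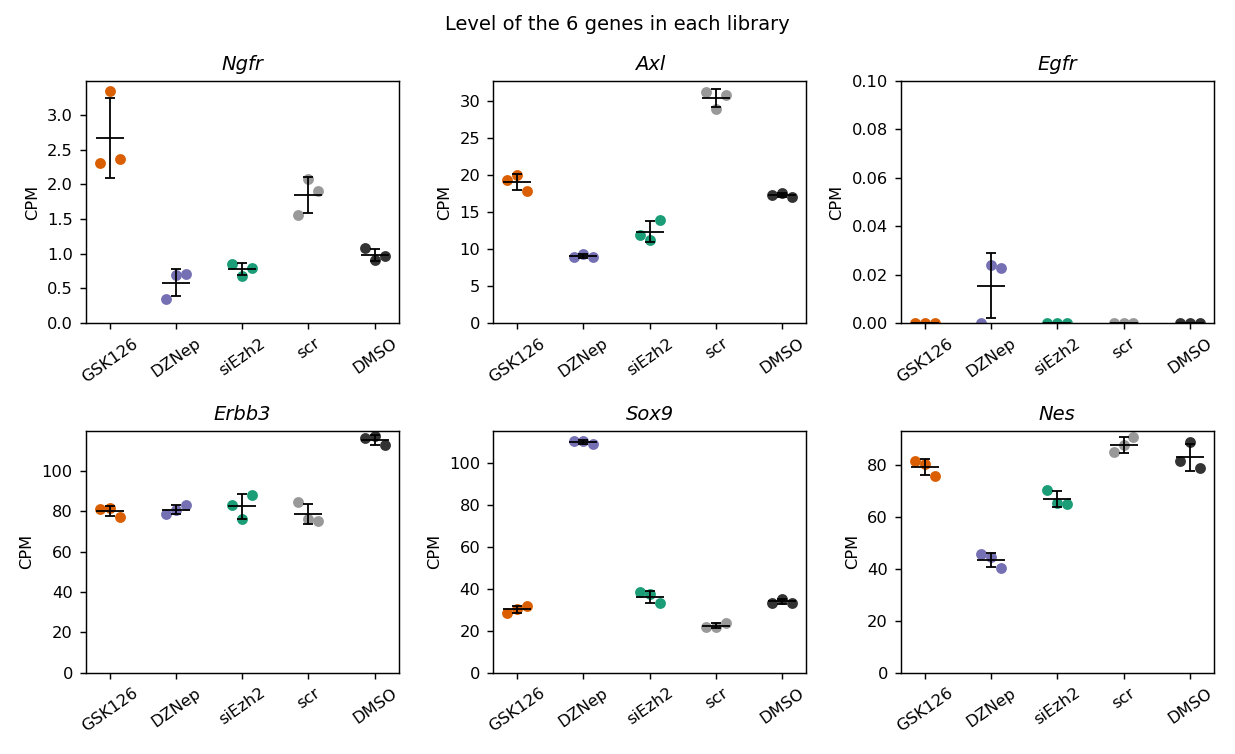
Level of each gene in CPM on a linear axis that starts at 0, with 1 point per library, and a bar and whiskers for the mean and SD of 3 libraries. Sox9 stands near 110 CPM with DZNep, Axl near 30 CPM in scr, and Erbb3 above 112 CPM only in the DMSO libraries.

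Upstream sequence is shown for Ngfr, Axl and Nes, the 3 genes that were lower both with DZNep than in DMSO and with siEzh2 than in scr. Each is the 250 bases before the transcription start in RefSeq on GRCm38.p6, read 5′ to 3′ on the gene's strand, with every CpG in capitals. RefSeq entries matched 4 of the 6 genes.
Ngfr, chr11:95587699-95587948, minus strand: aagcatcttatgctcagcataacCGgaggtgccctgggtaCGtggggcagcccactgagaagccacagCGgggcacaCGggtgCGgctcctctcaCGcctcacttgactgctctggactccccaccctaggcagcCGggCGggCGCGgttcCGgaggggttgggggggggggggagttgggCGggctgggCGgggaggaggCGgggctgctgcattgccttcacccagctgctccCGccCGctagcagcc
Axl, chr7:25788734-25788983, minus strand: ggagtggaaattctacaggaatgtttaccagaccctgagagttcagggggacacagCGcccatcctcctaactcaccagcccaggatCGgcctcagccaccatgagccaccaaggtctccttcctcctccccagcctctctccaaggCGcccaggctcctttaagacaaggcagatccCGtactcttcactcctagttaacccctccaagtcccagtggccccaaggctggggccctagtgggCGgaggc
Nes, chr3:87970843-87971092, plus strand: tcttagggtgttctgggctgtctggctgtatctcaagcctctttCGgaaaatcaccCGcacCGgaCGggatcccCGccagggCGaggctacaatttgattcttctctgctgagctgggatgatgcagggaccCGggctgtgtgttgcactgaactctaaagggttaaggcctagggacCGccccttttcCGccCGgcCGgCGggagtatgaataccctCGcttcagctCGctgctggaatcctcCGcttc
The Ngfr window holds 16 CpG, the Nes window 15 and the Axl window 5, against a median of 6 over 32851 windows of that length in the same table. Fewer CpG than in Ngfr were found in 74.6% of those windows, than in Nes in 72.7% and than in Axl in 44.4%. Both strands were searched for 5 motifs, an E-box (CACGTG), an M-box (CATGTG), an AP-1 site (TGANTCA), a TEAD site (GGAATG) and a SOX site (ACAAAG). The Axl window had 1 match, to the TEAD letters, which 12.6% of all windows hold. The Ngfr and Nes windows held none of the 5, which 6.02%, 12.3%, 6.75%, 12.6% and 16.5% of all windows hold in the order given. Such matches describe letters only.

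Ngfr (ENSMUSG00000000120, chromosome 11, 95568818 to 95587735, GRCm38, minus strand) encodes the neurotrophin receptor and had the lowest level per length of the 5 genes that passed the filter, with 12 to 145 counts per library. It stood at 2.31, 3.34 and 2.36 CPM with GSK126, against 1.08, 0.9085 and 0.970 CPM in DMSO. With siEzh2 it stood at 0.856, 0.684 and 0.799 CPM, against 1.56, 2.08 and 1.905 CPM in scr. Every GSK126 library was thus above every DMSO library, and every siEzh2 library below every scr library. The log2 fold change was 1.44 ± 0.19 (SE) with GSK126, a 2.72-fold higher level, and −1.24 ± 0.21 with siEzh2, a 2.36-fold lower level. These are the differences for which Ngfr was chosen and are given as a description.

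The controls of Ngfr were themselves apart. The scr libraries lay above all 3 DMSO libraries, with a log2 fold change of 0.90 ± 0.20, given as a description since both groups entered the choice of the genes. Against DMSO in place of scr, siEzh2 stood at −0.34, and against scr in place of DMSO, GSK126 stood at 0.54. The siEzh2 and DMSO libraries of Ngfr did not overlap, with 0.684 to 0.856 CPM with siEzh2 and 0.9085 to 1.08 CPM in DMSO. The siRNA and compound arms differ in treatment and in library number, which cannot be told apart.

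With DZNep, Ngfr fell to 0.354, 0.691 and 0.702 CPM, against 1.08, 0.9085 and 0.970 CPM in DMSO, a 1.645-fold lower level (log2 −0.72 ± 0.24, adjusted p = 0.0144). The call rests on DZNep replicate 1, which had 12 counts. Without it the log2 fold change was −0.50 (adjusted p = 0.0827).

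Axl (ENSMUSG00000002602, chromosome 7, 25757273 to 25788705, minus strand) encodes the receptor tyrosine kinase for GAS6. It had 8.94, 9.34 and 8.85 CPM with DZNep, against 17.3, 17.6 and 16.96 CPM in DMSO. That was a 1.91-fold fall (log2 −0.93 ± 0.08, adjusted p = 2.16e-09) with no overlap between the groups. With siEzh2 it had 11.9, 11.2 and 13.9 CPM, against 31.2, 28.9 and 30.8 CPM in scr (log2 −1.30 ± 0.07). With GSK126 it had 19.3, 19.99 and 17.8 CPM, just above the range of DMSO (log2 0.14 ± 0.07), and against scr it stood at −0.67. The scr libraries were the highest of all for Axl, and scr exceeded DMSO by 0.81 ± 0.07 on the log2 scale (1.76-fold). The siEzh2 libraries lay below the DMSO libraries too, at a log2 value of −0.48 against DMSO.

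Egfr (ENSMUSG00000020122, chromosome 11, 16752203 to 16918158, plus strand) was close to undetected. It had 1 count in DZNep replicate 2, 1 in DZNep replicate 3 and 0 in each of the other 13 libraries. A count of 0 allows up to 3 counts, which is 0.0462 to 0.0917 CPM depending on the library, for counting error only. No difference between groups was detectable at this depth, and no fold is given.

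Erbb3 (ENSMUSG00000018166, chromosome 10, 128567523 to 128589652, minus strand) was highest in DMSO. It had 81.3, 81.7 and 77.35 CPM with GSK126, 78.5, 80.7 and 83.3 CPM with DZNep, and 116, 117 and 113 CPM in DMSO. In the siRNA arm it had 83.0, 76.1 and 88.2 CPM with siEzh2 and 84.4, 76.1 and 75.4 CPM in scr. The 3 DMSO libraries lay above all 12 others, and siEzh2 and scr overlapped. Erbb3 fell 1.43-fold with DZNep (log2 −0.51 ± 0.06, adjusted p = 1.68e-07). In scr its level was 1.47-fold under that in DMSO (−0.55 ± 0.06). The other untested log2 values were −0.53 ± 0.06 with GSK126 and 0.07 ± 0.06 with siEzh2 against scr. With the controls exchanged they were 0.03 for GSK126 against scr and −0.48 for siEzh2 against DMSO.

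Sox9 (ENSMUSG00000000567, chromosome 11, 112782224 to 112787760, plus strand) encodes a transcription factor that acts in the neural crest and in cartilage. It stood at 110.2, 110.3 and 108.6 CPM with DZNep, against 33.4, 35.3 and 33.3 CPM in DMSO. The rise was 3.23-fold (log2 1.69 ± 0.06, adjusted p = 5.26e-15), and it was the only increase with DZNep among the 5 genes. With GSK126 the levels of 28.5, 30.1 and 31.7 CPM lay just under those in DMSO (log2 −0.17 ± 0.06). With siEzh2 they were 38.3, 37.3 and 33 CPM, against 21.95, 21.8 and 23.6 CPM in scr (log2 0.69 ± 0.06). Here the scr libraries were the lowest of all, 1.52-fold under DMSO (−0.60 ± 0.06), and the siEzh2 range reached into the DMSO range. With the controls exchanged, Sox9 stood at 0.09 for siEzh2 against DMSO and at 0.43 for GSK126 against scr.

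Nes (ENSMUSG00000004891, chromosome 3, 87971078 to 87980451, plus strand) encodes the progenitor filament protein nestin and had 45.65, 44.3 and 40.5 CPM with DZNep, against 81.5, 88.7 and 78.6 CPM in DMSO. It fell 1.91-fold (log2 −0.93 ± 0.06, adjusted p = 4.97e-11), with no overlap. With siEzh2 it had 70.4, 65.45 and 64.9 CPM, against 84.75, 87.45 and 90.55 CPM in scr (log2 −0.39 ± 0.06), and all 3 siEzh2 libraries lay below the DMSO libraries as well. With GSK126 it had 81.5, 80.4 and 75.65 CPM, which overlapped DMSO (log2 −0.07 ± 0.06). For scr against DMSO the log2 difference was 0.08 ± 0.06, and the 2 groups overlapped.

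**Figure D2:**
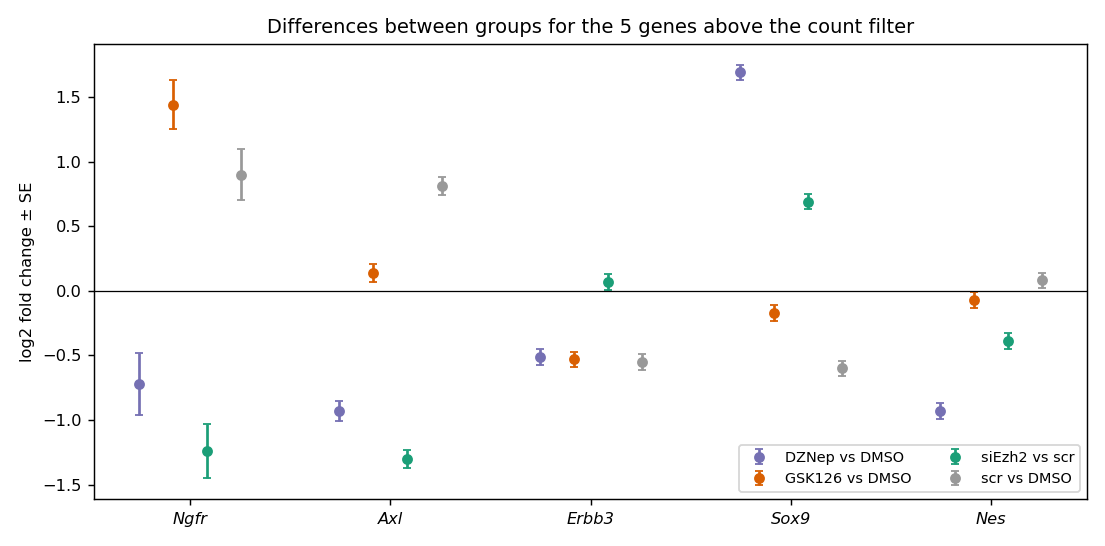
Log2 fold change with its standard error for the 5 genes above the count filter, in DZNep, GSK126 and scr against DMSO and in siEzh2 against scr. Ngfr lies at 1.44 with GSK126 and −1.24 with siEzh2, and Sox9 at 1.69 with DZNep.

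Read against all 15152 genes tested, DZNep changed 5 of 5 measured markers, where 62.3% of all genes were called in either direction. It lowered 4, where 31.0% of all genes were lower, and raised 1, where 31.2% were higher. For all 5 the libraries of DZNep and DMSO did not overlap, as for 63.0% of all genes. In scr against DMSO 4 of 5 did not overlap, against 37.5% of all genes, of which 25.9% were called by adjusted p. With GSK126 the groups did not overlap for 4 of 5 genes, against 30.7% of all genes, and with siEzh2 also for 4 of 5, against 41.8%. By adjusted p, 12.7% of all genes were called with GSK126 and 26.1% with siEzh2. The groups of these 3 comparisons guided the choice, so nothing is read from their counts. In bulk RNA, fewer cells of a type and less RNA per cell cannot be told apart. With DZNep the summed fibroblast markers stood at 57.8 to 68.7 CPM, against 18.3 to 20.04 CPM in DMSO, 4 of 5 measured ones rose, and Thy1 had no count. With siEzh2 they summed to 27.4 to 30.6 CPM, against 19.1 to 19.75 CPM in scr. Keratinocyte and Schwann cell markers summed to 134 to 142 CPM with GSK126 and 89.4 to 97.2 CPM in DMSO, and to 98.7 to 105 CPM with siEzh2 and 118 to 124 CPM in scr. Among them Mbp rose with GSK126 (log2 0.58 ± 0.05, adjusted p = 2.47e-07) and fell with siEzh2 (−0.25 ± 0.05, adjusted p = 0.00110), and it was higher in scr than in DMSO (0.38 ± 0.05, adjusted p = 1.95e-05). Blood and endothelial markers summed to 7.90 to 8.87 CPM with DZNep and 4.52 to 5.07 CPM in DMSO. Mitochondrial transcripts took 6.17% to 8.40% of counts with DZNep and 8.36% to 9.27% in DMSO. The part of these in the results was not tested.

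Across the 15 libraries, log2 levels of Sox9 ran opposite to those of Nes (Pearson r = −0.952), Axl (r = −0.878) and Ngfr (r = −0.723). Axl ran with Nes (r = 0.871) and with Ngfr (r = 0.778). Erbb3 followed none of them, with r between −0.181 and 0.264. These values describe 15 libraries in 5 groups, and correlation within groups was not computed. The DZNep libraries, highest for Sox9 and lowest for Nes and Axl, can weigh heavily in them. For pairs of markers, r without DZNep was not computed.

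Leaving out unnamed, mitochondrially encoded, predicted and clone-like genes, those with the most similar pattern were looked up for each marker by the same correlation. For Ngfr they were Sept3, a septin (r = 0.930), and Crim1, a transmembrane protein of the invasive list (r = 0.928). Sept3 stood at −1.29 with DZNep and 0.95 with GSK126 on the log2 scale, and at −0.90 with siEzh2. For Axl they were the receptor Notch1 (r = 0.989) and Lrrc75b (r = 0.984), whose log2 values were −1.94 and −2.89 with siEzh2 against scr. For Sox9 they were Tfap2a, a neural crest transcription factor (r = 0.995), and Creg1 (r = 0.992), for Nes Mipol1 (r = 0.979) and Fcgrt (r = 0.978), and for Erbb3 Pmepa1 (r = 0.911) and Selenok (r = 0.879). Without the DZNep libraries, r over the other 12 libraries was 0.859 or more for all of these pairs, the lowest being that of Nes with Fcgrt. The pairs were picked as the highest r over all 15 libraries, these 12 among them, so this is no independent check.

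Ligands and partners of the receptors were taken as lists, chosen with earlier results of these data known. For NGFR, 10 of 15 listed genes passed the count filter. The ligand gene Ntf3 had no count in any library, and neither had the receptor tyrosine kinase gene Ntrk2. The sorting receptor Sort1, which binds proneurotrophins together with NGFR, stood at 853 ± 24.3 CPM with DZNep and 771 ± 30.1 CPM in DMSO. With DZNep 3 of the 10 rose and 3 fell, a share of 60.0% against 62.3% of all genes. Sorcs3, a relative of Sort1, rose to 0.895 ± 0.154 CPM with DZNep, against 0.286 ± 0.0680 CPM in DMSO (log2 1.61 ± 0.32, adjusted p = 0.000193). The other 5 calls, Sort1, Traf6, Bdnf, Sorcs2 and Ntrk3, were each lost under at least 1 alternative. With GSK126 the sole call was Sort1 (−0.16 ± 0.05, adjusted p = 0.0270), which was lost in 5 of the 6 fits without 1 library. With siEzh2 3 rose and 1 fell, 40.0% against 26.1% of all genes. Ntrk3, the receptor for neurotrophin 3, stood at 1.23 ± 0.177 CPM with siEzh2, 0.485 ± 0.0227 CPM in scr and 1.08 ± 0.0333 CPM in DMSO. It rose with siEzh2 relative to scr (log2 1.34 ± 0.22, adjusted p = 0.000127). It was lower in scr than in DMSO (−1.15 ± 0.22, adjusted p = 0.000574), and these comparisons share scr. Against DMSO, siEzh2 stood at 0.19 (adjusted p = 0.560).

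All 4 genes of the AXL family list passed the filter. The ligand Gas6 was scarce, at 0.450 ± 0.0242 CPM with DZNep and 0.273 ± 0.0920 CPM in DMSO, with no call in any comparison. The other ligand, Pros1 (protein S), stood at 25.65 ± 0.770 CPM with DZNep and 37.9 ± 2.34 CPM in DMSO (log2 −0.56 ± 0.06, adjusted p = 1.86e-07). The sister receptors fell with DZNep as Axl did, Tyro3 by 0.66 ± 0.07 (adjusted p = 2.12e-07) and Mertk by 0.33 ± 0.08 (adjusted p = 0.00180) on the log2 scale. That made 3 of 4 lower, where 31.0% of all genes were. With siEzh2 3 of 4 were called, against 26.1% of all genes. Mertk fell (−0.52 ± 0.08, adjusted p = 5.19e-05) and Tyro3 rose (0.29 ± 0.08, adjusted p = 0.00716). Mertk stood at 10.55 ± 0.603 CPM with siEzh2, 15.1 ± 1.04 CPM in scr and 11.3 ± 0.709 CPM in DMSO, with scr highest as for Axl. Against DMSO, siEzh2 stood at −0.28 for Tyro3, the opposite sign, and at −0.09 for Mertk (adjusted p = 0.489).

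For the ERBB receptors, 13 of 19 listed genes passed the filter. Nrg1 and Nrg3, ligand genes of the neuregulin family, had no count in any library, and Erbb4 had 2 counts or fewer in each group. Erbb2, the partner of Erbb3, stood at 21.6 ± 1.32 CPM with DZNep and 19.8 ± 1.70 CPM in DMSO, with no call. With DZNep 4 rose and 4 fell, 61.5% against 62.3% of all genes. Among those that fell, the calls of Hbegf and Lrig3 were lost when single libraries were left out. Tgfa, a ligand of EGFR, fell to 1.86 ± 0.0820 CPM with DZNep, against 17.2 ± 1.20 CPM in DMSO, 9.29-fold (log2 −3.22 ± 0.09, adjusted p = 1.10e-16). Btc (betacellulin) also fell (−2.24 ± 0.56, adjusted p = 0.00177), on 8 counts over the DZNep libraries. Nrg2 rose 4.31-fold (2.11 ± 0.22, adjusted p = 8.10e-08). The feedback inhibitors Spry4 (9.99-fold, 3.32 ± 0.36, adjusted p = 2.79e-07), Spry2 (0.67 ± 0.08) and Errfi1 (0.45 ± 0.06) rose as well. Spry4 rested on low levels, 2.13 ± 0.429 CPM with DZNep and 0.199 ± 0.114 CPM in DMSO.

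With GSK126 3 of the 13 rose, 23.1% against 12.7% of all genes. Lrig1, which limits ERBB signalling, stood at 2.28 ± 0.520 CPM with GSK126 and 1.23 ± 0.0582 CPM in DMSO (0.89 ± 0.16, adjusted p = 0.000818), while the calls of Lrig3 and Tgfa were lost when single libraries were left out. With siEzh2, Errfi1 and Erbb2 rose and Tgfa and Lrig1 fell, 30.8% against 26.1% of all genes, though the call of Erbb2 was lost in 5 of the 6 fits without 1 library. Lrig1 stood at 1.78 ± 0.141 CPM with siEzh2 and 2.92 ± 0.332 CPM in scr (−0.72 ± 0.15, adjusted p = 0.00134), which like Ngfr was lower with siEzh2 than in scr and higher in scr than in DMSO (1.24 ± 0.15, adjusted p = 5.26e-06). With the controls exchanged its sign turned, to 0.52 for siEzh2 against DMSO and −0.35 for GSK126 against scr.

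Of 9 filament genes 5 passed the filter, and the neurofilament genes Nefl, Nefm and Nefh had no count in DMSO. Vim (vimentin), with which nestin co-assembles, stood at 1696 ± 106 CPM with DZNep and 1420 ± 143 CPM in DMSO (0.26 ± 0.06, adjusted p = 0.00142). Gfap, the glial filament gene, fell (−0.80 ± 0.10, adjusted p = 5.71e-07), as did Des, the desmin gene of muscle (−0.56 ± 0.12, adjusted p = 0.000417). With siEzh2, Vim rose (0.45 ± 0.06, adjusted p = 1.75e-05) and Des fell (−1.23 ± 0.11, adjusted p = 1.09e-07). Des stood at 9.68 ± 0.540 CPM with siEzh2, 22.6 ± 0.890 CPM in scr and 10.25 ± 1.37 CPM in DMSO. Against DMSO, siEzh2 stood at −0.05 for Vim and −0.08 for Des (adjusted p = 0.679).

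**Figure D3:**
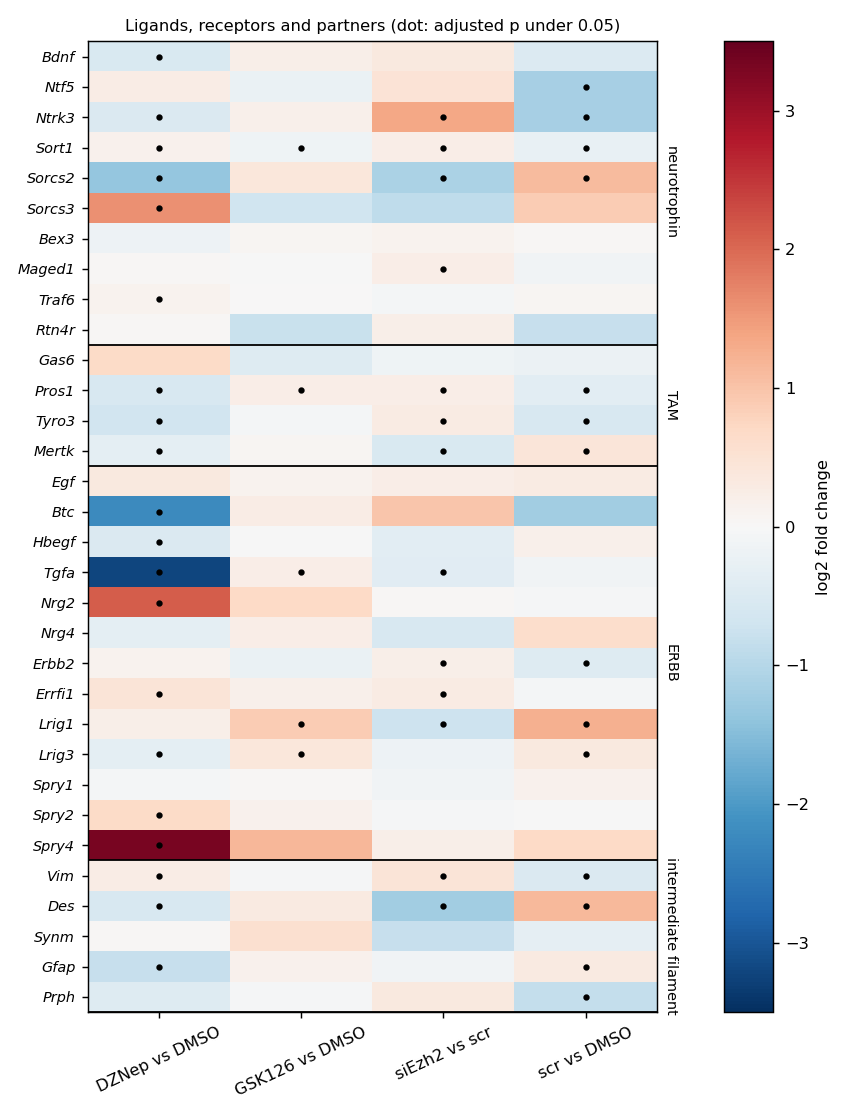
Log2 fold change of the 32 ligand, receptor and partner genes above the count filter in each comparison, with red for higher, blue for lower and a dot for an adjusted p under 0.05. Tgfa (−3.22) and Spry4 (3.32) with DZNep are the deepest fields.

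Genes of the neural crest state gave mixed directions. Of 32 listed genes only 20 passed the count filter. Of the 20 measured, 10 rose and 7 fell with DZNep, 85.0% against 62.3% of all genes, with a median of 0.15 against 0.00 over all genes on the log2 scale. Tfap2a rose with Sox9, to 752 ± 25.1 CPM with DZNep against 307 ± 9.95 CPM in DMSO (1.29 ± 0.06, adjusted p = 2.11e-13), as did the adhesion molecule L1cam (0.50 ± 0.05) and Snai2, a transcriptional repressor active in the neural crest (0.65 ± 0.08). The cadherin Cdh19 (−0.63 ± 0.06), the calcium-binding protein gene S100b (−0.51 ± 0.06) and the transcription factor Ets1 (−0.24 ± 0.05) fell. With GSK126 3 rose and 3 fell, 30.0% against 12.7%, with a median of 0.02 against −0.01. L1cam (0.43 ± 0.05), Prom1 (0.65 ± 0.12) and Ncam1 (0.29 ± 0.05) rose. Pax3 (−0.36 ± 0.05), a melanoblast transcription factor, and S100b (−0.34 ± 0.06) were among those that fell. Against scr in place of DMSO, the calls of Ncam1 (0.08, adjusted p = 0.279) and S100b (−0.08, adjusted p = 0.327) were lost, and Pax3 stood at −0.18. With siEzh2 10 rose and 2 fell, 60.0% against 26.1%, with a median of 0.29 against −0.01. L1cam rose to 150 ± 4.18 CPM with siEzh2, against 70.35 ± 2.21 CPM in scr (1.09 ± 0.05, adjusted p = 1.91e-11). L1cam was called higher with all 3 treatments, and DMSO stood at 100.4 ± 5.84 CPM. Against DMSO, siEzh2 stood at 0.58 for L1cam.

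Genes of the invasive state, which Axl marks, did not move one way. Of 44 listed genes only 30 passed the filter. Of the 30 measured, 9 rose and 12 fell with DZNep, 70.0% against 62.3% of all genes, with a median of 0.00 for the list and for all genes. The receptor gene Met (1.05 ± 0.05), Cav1, the caveolin gene (1.34 ± 0.07), and Sparc (0.68 ± 0.05) rose, and Tgfb1 (−1.06 ± 0.06), Ccn1 (−0.91 ± 0.08) and Tead2 (−0.56 ± 0.06) fell. With GSK126 7 rose and 2 fell, 30.0% against 12.7%, led by Cav1 (0.74 ± 0.07), Crim1 (0.42 ± 0.07) and Fn1, the fibronectin gene (0.59 ± 0.11), against Nuak1 (−0.30 ± 0.06) and Junb (−0.31 ± 0.07), both at 0.03 against scr, where Crim1 stood at 0.20 and Fn1 at 0.31. With siEzh2 12 rose and 6 fell, 60.0% against 26.1%. Met stood at 308 ± 4.88 CPM with siEzh2, 162 ± 4.22 CPM in scr and 175 ± 10.97 CPM in DMSO, and rose (0.93 ± 0.05, adjusted p = 3.53e-11). Jun (1.11 ± 0.06) stood at 29.6 ± 1.51 CPM with siEzh2, 13.8 ± 0.685 CPM in scr and 25.1 ± 0.120 CPM in DMSO. Lower with siEzh2 were Tead2 (−0.48 ± 0.06), Thbs1 (−0.77 ± 0.14) and Sparc (−0.23 ± 0.05). Against DMSO in place of scr, the calls of Thbs1 (−0.41, adjusted p = 0.0615) and Sparc (−0.04, adjusted p = 0.611) were lost, and Jun stood at 0.24.

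Genes of the pigmented state, of which 17 of 18 listed passed the filter, were set beside the markers. They split with DZNep, where 9 of 17 rose and 4 fell, 76.5% against 62.3%. Kit, the stem cell factor receptor of melanoblasts, rose to 142 ± 3.35 CPM with DZNep against 33.3 ± 1.28 CPM in DMSO (2.09 ± 0.05, adjusted p = 9.55e-18), and Mc1r, the melanocortin receptor, fell (−0.83 ± 0.05). With GSK126 10 of the 17 fell, 58.8% against 12.7%, with a median of −0.25. The 3 with the smallest p were Pmel (−0.55 ± 0.06), Tspan10 (−0.52 ± 0.06) and Mlana (−0.44 ± 0.06). Against scr in place of DMSO none of the 3 was called. Pmel stood at −0.03 (adjusted p = 0.791), Tspan10 at −0.15 (adjusted p = 0.0802) and Mlana at 0.09 (adjusted p = 0.318). With siEzh2 13 of the 17 rose, 76.5% against 26.1%, with a median of 0.41. Of these, Oca2, Trpm1 and Mc1r, with the smallest p, also stood above DMSO. Their means were 41.5, 81.2 and 293 CPM with siEzh2 and 27.9, 64.4 and 238 CPM in DMSO. Pmel and Mlana, though called higher than in scr, stood below DMSO, at 3988 and 1033 CPM against 4563 and 1249 CPM. Tspan10 overlapped DMSO. In scr against DMSO 1 rose and 14 fell, 88.2% against 25.9%, with a median of −0.36. Mitf itself stood at 896 ± 12.4 CPM with siEzh2, 640 ± 31.4 CPM in scr and 792 ± 45.1 CPM in DMSO.

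**Figure D4:**
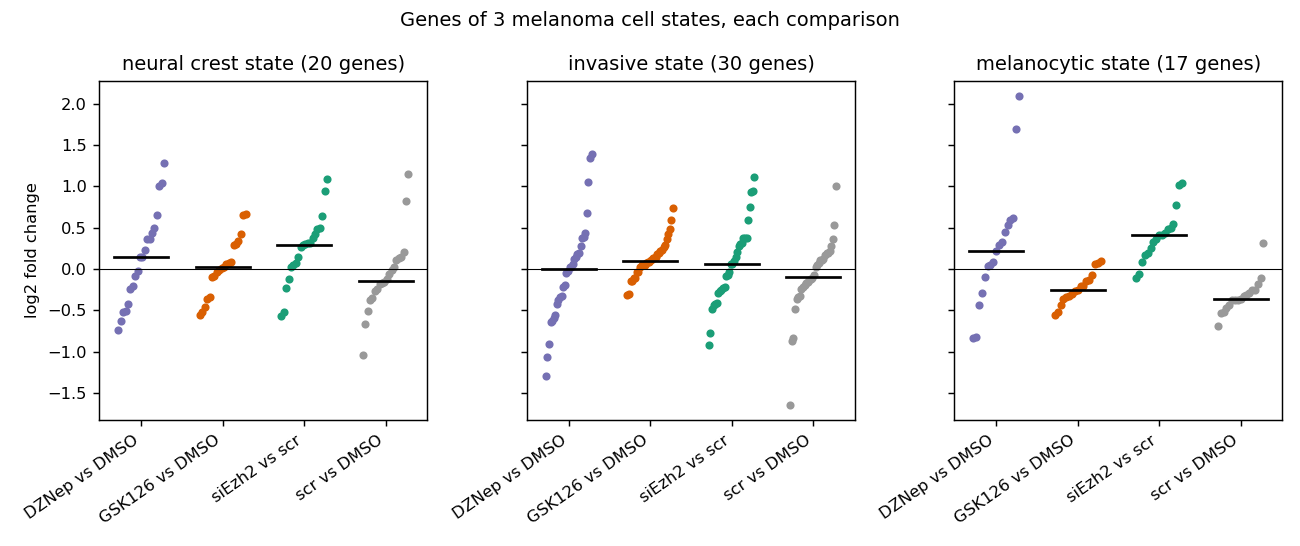
Log2 fold change of each measured gene of the neural crest (20 genes), invasive (30 genes) and melanocytic (17 genes) lists, sorted within each comparison, with a bar at the median. The melanocytic medians lie at −0.25 with GSK126, 0.41 with siEzh2 and −0.36 in scr against DMSO.

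Over these 7 lists together 99 of 141 genes passed the filter. With DZNep 36 rose and 35 fell, 71.7% of those measured against 62.3% of all genes. With GSK126 14 rose and 16 fell, 30.3% against 12.7%, and with siEzh2 43 rose and 13 fell, 56.6% against 26.1%. In scr against DMSO 16 rose and 41 fell, 57.6%, so a larger share of these genes than of all genes (25.9%) was called between the controls.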

How the data were processed

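The authors deposited whole-number read counts per gene for 15 libraries, with no normalization. The submitters' processing notes name STAR, featureCounts and the build GRCm38. Versions, annotation and strand setting are not stated, so reads of overlapping and antisense genes could not be told apart. Exons of Mc1r, Itga4, Tfap2a, Junb, Jun, Pmel, Prom1 and Des overlap those of another counted gene by 5.86% to 17.9% of their length, and those of the other called genes named by less. No other counted gene overlaps exons of the 6 markers. GENCODE M21, on GRCm38, matched 45143 of 46078 identifiers and gave symbols and exon lengths.

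Counts were tested in edgeR 4.0.16 (R 4.3.3, limma 3.58.1) by the quasi-likelihood test with robust estimation, TMM scaling and the default low-count filter, which left 15152 genes. All 15 libraries entered 1 fit with a term per group. Calls are at a Benjamini-Hochberg adjusted p under 0.05 over all genes, and every adjusted p is from this fit unless a setting is named. Fold changes are log2 values with standard errors. Total counts of 33299524 to 64545747 make 1 count worth 0.0154 to 0.0306 CPM.

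The markers and lists were chosen with earlier results of these data known. Named were all markers, partner genes that passed the filter, the 3 called genes with the smallest p per direction in each state list and comparison, and the 2 genes most correlated with each marker. The search for correlated genes left out those with no symbol, mitochondrially encoded genes and symbols of predicted genes or clones. Partner genes below the filter and Mitf were named after their values were seen. Some genes that this rule names are not reported here. Alternatives were RLE scaling, library totals alone, DESeq2 1.42.0, no count filter, the compared groups only, the replicate number as a block, leaving out each library and, chosen after seeing the data, exchanged controls.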

Additional observations from a re-analysis of the deposited data

Results flagged for a closer look

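Ngfr, Axl and Sox9 were each picked out because all 3 GSK126 libraries lay on one side of DMSO and all 3 siEzh2 libraries on the opposite side of scr. Subtracting the log2 value of GSK126 from that of siEzh2 gave −2.69 for Ngfr, −1.44 for Axl and 0.86 for Sox9. These differences were not tested, since both comparisons guided the choice of the markers. Of all 15152 genes, 1154 (7.62%) showed such a pattern of opposite groups that do not overlap. The pattern depends on the control for Axl and Sox9. With the controls exchanged, GSK126 and siEzh2 stood at −0.67 and −0.48 for Axl and at 0.43 and 0.09 for Sox9, the same sign. For Ngfr they stood at 0.54 and −0.34, still opposite.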

How the results depend on the processing

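The direction of every marker in every comparison was kept under RLE scaling, library totals alone, DESeq2, no count filter, the compared groups only and the replicate block. The fall of Ngfr with DZNep was no longer called without DZNep replicate 1 (log2 −0.50, adjusted p = 0.0827), and over the 6 libraries left out in turn it ranged from −0.87 to −0.50. The count of genes called with GSK126 was 1923, 1131 with the compared groups only, and 1183 to 2490 when 1 library was left out, with 1237 without DMSO replicate 3, 1229 without GSK126 replicate 1, 1183 without GSK126 replicate 2 and 1203 without GSK126 replicate 3. The cause was not tested.

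Same-numbered replicates did not deviate together, with correlations of −0.176 to 0.156, and share only a number. With the replicate number as a block the calls were 9451 in DZNep vs DMSO, 1937 in GSK126 vs DMSO, 3965 in siEzh2 vs scr and 3904 in scr vs DMSO, and no marker tested changed its call.

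Exchanging the controls moved the most. With DMSO as the control of siEzh2, 2148 genes were called in place of 3953, 31 in place of 56 on the lists, and the markers stood at −0.34 (Ngfr), −0.48 (Axl), 0.09 (Sox9), −0.48 (Erbb3) and −0.31 (Nes). Among the markers Erbb3, at 0.07 against scr, turned. Of the other genes named, Erbb2 (−0.23), Itga4 (0.31), Lrig1 (0.52), Pros1 (−0.14), Sort1 (−0.03), Tyro3 (−0.28) and Vim (−0.05) turned. Erbb2 (adjusted p = 0.0381), Lrig1 (adjusted p = 0.0419) and Tyro3 (adjusted p = 0.0158) were called in this opposite direction, and the others were not called. With scr as the control of GSK126, 4584 genes were called, 51 in place of 30 on the lists, with Ngfr at 0.54, Axl at −0.67, Sox9 at 0.43, Erbb3 at 0.03 and Nes at −0.15. Among the markers Axl, Sox9 and Erbb3, at 0.14, −0.17 and −0.53 against DMSO, turned. Of the other genes named, Junb (0.03), Lrig1 (−0.35), Mlana (0.09), Nuak1 (0.03) and Sort1 (0.09) turned, with no call. The calls of Ntrk3, Maged1, Mertk, Des, Ets1, Tfap2a, Thbs1, Sparc and Sorcs2 with siEzh2 and of Ncam1, S100b, Lrig3, Pmel and Tspan10 with GSK126 kept their sign and were lost. The causes were not tested. Egfr, with 2 counts in all, and Ngfr, with 12 counts in its lowest library, are limited by depth.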
